A study of Saccharomyces cerevisiae with 137 samples.

Results

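The response of budding yeast (Saccharomyces cerevisiae) to cold was compared between delHAP4, a strain that lacks the transcription factor gene HAP4, and wild type. The comparison took the arrays after 30 and 60 min at 13 °C (t30 and t60), averaged per flask, and these were 17 of the 137 arrays of the series. They comprised 8 arrays from delHAP4 flasks 1 to 4 and 9 from wild type flasks 0 to 4, since wild type flask 4 was used at t30 only. Cultures were grown at 30 °C in rich glucose medium (YEPD) before the shift, and each array set the shifted sample in one dye against the t0 sample of its own flask, taken before the shift, in the other. The delHAP4 strain carries the deletion in BY4741 and was grown with 200 μg/mL of G418, an aminoglycoside to which the deletion strains are resistant. Wild type was grown without G418 and was BY4741 in flasks 1 to 4 and BY4739, of the opposite mating type, in flask 0. All delHAP4 slides were uncoated Ontario chips, whereas all wild type slides were coated with PEG and were GCAT chips in flasks 0 and 1 and Ontario chips in flasks 2 to 4. The effects of the deletion, of G418 and of the slide coating therefore cannot be told apart in the contrast with wild type. The shifted sample was in Cy5 for delHAP4 flasks 2 and 4 and wild type flasks 0 to 2, and in Cy3 for the other flasks.

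Hap4 is the activating subunit of the HAP complex, in which Hap2, Hap3 and Hap5 bind the CCAAT box in front of many genes of mitochondrial respiration. Transcription of HAP4 is repressed by glucose and rises when yeast turns from fermentation to respiration, so that the complex is best known from growth on non-fermentable carbon. Cold slows translation and stiffens membranes, and yeast answers it with genes for ribosome assembly, membrane lipids and cell wall mannoproteins.

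A value is a log ratio, with the shifted sample likely over t0 going by the titles, which was deposited scaled so that 1 unit is the spread of that array's own genes. Values are called scores here, are not folds, and are given as mean ± SD over flasks or, for differences, as the fitted difference ± SE. Because each array has its own flask's t0 as the reference, the difference between strains is a difference in cold response, not in level. A gene that delHAP4 expresses less both before and during cold would show none. The ratio of HAP4 itself is no check of the deletion for the same reason, since neither channel of a delHAP4 array should hold its transcript.

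Over all genes, which are not independent, the mean cold responses of the 2 strains correlated at a Spearman rho of 0.76. A single delHAP4 array correlated at 0.52 to 0.75 with the mean of the other delHAP4 flasks and at 0.48 to 0.74 with the wild type mean. A wild type array correlated at 0.45 to 0.73 with its own strain and at 0.44 to 0.77 with delHAP4, the lowest of both being flask 0 at t30. Arrays measured 5412 to 6112 of 6178 open reading frames, and the median response of all genes tested lay between −0.02 and 0.06 in every flask.

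**Figure D1:**
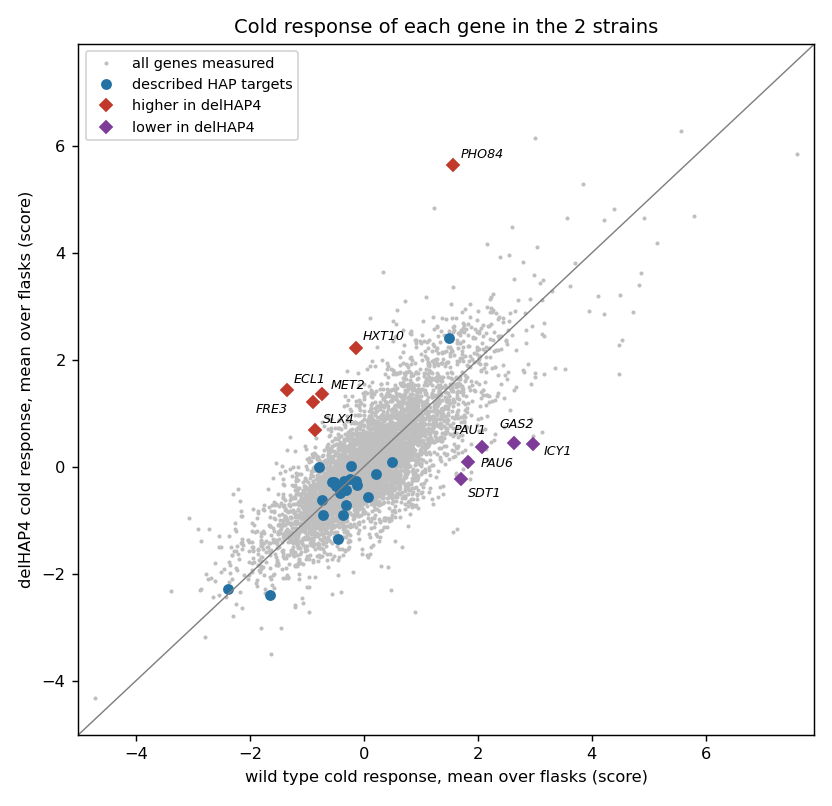
Each grey point is a gene, plotted by its mean cold response over wild type flasks (horizontal) and over delHAP4 flasks (vertical), both as scores, with the line of equal response. Red and purple diamonds mark the genes past the threshold that are named in the text, 6 above and 5 below the line, and blue points the 22 described targets of the HAP complex, of which 21 had a fitted difference within 1 of 0.

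The genes whose cold response depended on the strain were few: 12 of 6077 tested (0.197%) differed between delHAP4 and wild type at an adjusted p below 0.05 (limma with Benjamini-Hochberg adjustment). Those higher in delHAP4 were 6 (0.0987%): PHO84, ECL1, HXT10, FRE3, MET2 and SLX4. Those lower were also 6 (0.0987%), among them ICY1, GAS2, SDT1, PAU1 and PAU6. Flask means did not overlap between the strains in 11 of the 12, where over all genes with 3 or more flasks per strain 2.21% did not overlap with delHAP4 higher and 2.06% with delHAP4 lower. The 12 were called from these same values, so their lack of overlap is no separate support for the calls. The calls rest on single flasks: 0 of the 12 remained without delHAP4 flask 3 or without wild type flask 1, 1 without delHAP4 flask 1 or 4, and 4 without wild type flask 4. All 12 kept their sign under every alternative that could be fitted.

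The largest difference was that of PHO84, the high-affinity phosphate transporter of the plasma membrane. Its flask means in delHAP4 were 6.10, 6.05, 5.48 and 4.93, and in wild type 2.26, 1.16, 2.24, 1.09 and 1.09 in flasks 0 to 4. Every delHAP4 flask was thus above every wild type flask, and both strains were above their t0. The fitted difference was 4.19 ± 0.93 (SE, adjusted p = 0.037, 95% confidence interval 2.31 to 6.06).

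PHO84 diverged between the strains with time. At 15 min the means were 1.26 ± 0.80 in delHAP4 and 0.67 ± 1.38 in wild type (SD, n = 4 arrays each), and the fitted difference was 0.30. At 30 min delHAP4 stood at 4.47 ± 0.86 (n = 4) against 2.05 ± 0.76 in wild type (n = 5). At 60 min it stood at 6.81 ± 0.62 against 1.08 ± 0.74 (n = 4 each), so that delHAP4 was higher at each later time while wild type was not. The change of the difference from 30 to 60 min was 3.53 ± 1.46, which did not pass the threshold (adjusted p = 1). At 90 min, in recovery, the delHAP4 arrays held −0.92, 0.81 and 8.16 in flasks 2 to 4. The highest of these is an array that resembles cold arrays over all genes; it enters the contrast through the spread only, and without it the difference was 4.19 ± 0.69 (adjusted p = 0.00254).

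Other genes of the phosphate response, targets of the activator Pho4, were tested as a list. Of 16 members, PHO84 was the only one called, and the median difference was 0.27 against −0.02 over all genes. Differences were above 0 in 9 members and below 0 in 7. PHO12, an acid phosphatase nearly identical to PHO11, differed by 1.28 ± 0.45 (adjusted p = 0.32), with flask means of 1.12 to 2.39 in delHAP4 and −0.01 to 0.59 in wild type that did not overlap. PHO11 itself differed by 0.37 ± 0.45 (adjusted p = 0.933 in limma), and its flask means overlapped. VTC1, of the vacuolar complex that makes polyphosphate, differed by 1.11 ± 0.45 (adjusted p = 0.437), also without overlap. CTF19, another member of the list, went the other way, at −1.46 ± 0.58 (adjusted p = 0.426 in limma). PHO5, the main secreted acid phosphatase, differed by 0.16 ± 0.43, and the transporter gene PHO89 by −1.01 ± 0.79.

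HXT10, which encodes a hexose transporter of a large family with similar sequences, was at 2.21, 1.97, 2.62 and 2.13 in delHAP4 flasks 1 to 4. In wild type flasks 0 to 4 it was at 0.36, −0.09, 0.32, −1.18 and −0.13. The groups were apart by more than the range of either (difference 2.43 ± 0.49, adjusted p = 0.0148). Unlike PHO84 it was high in delHAP4 early: the arrays gave 3.36 ± 1.20 at 15 min, 3.22 ± 0.48 at 30 min and 1.24 ± 0.85 at 60 min (n = 4 each), against 0.23 ± 1.38, 0.23 ± 0.68 and −0.61 ± 0.97 in wild type (n = 4, 5 and 4).

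Of the 18 genes for hexose transport and glucose sensing, HXT10 was called higher and none lower, 13 differences were above 0 and the median was 0.48. The lowest fitted difference was that of RGT1, at −1.0 ± 0.47 (adjusted p = 0.561 in limma). The largest fitted difference of the list was that of HXT2, a high-affinity glucose transporter repressed by high glucose, at 3.34 ± 1.15 (adjusted p = 0.301). Its wild type flasks ran from 0.17 to 6.15 and its delHAP4 flasks from 5.35 to 7.05. MTH1, a co-repressor of hexose transporter genes, had 2.42 to 3.55 in delHAP4 against −0.29 to 2.79 in wild type (2.01 ± 0.67, adjusted p = 0.256). Wild type flasks 3 and 4, both with the shifted sample in Cy3, were the lowest in both genes. The median difference of the list was 2.15 among Cy3 flasks alone and −0.02 among Cy5 flasks alone, and the part of the dye was not tested further.

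**Figure D2:**
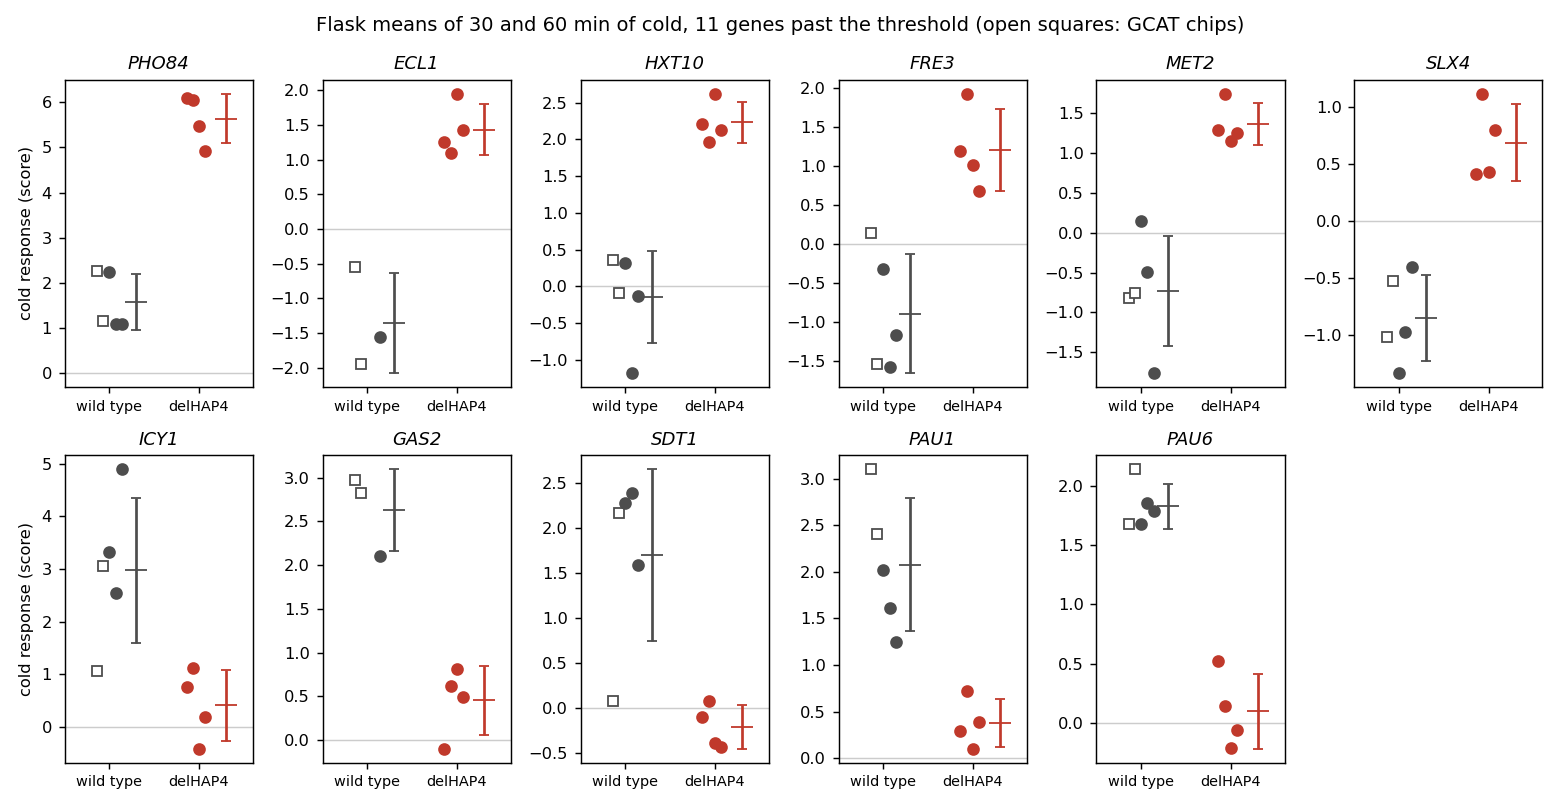
Flask means of t30 and t60 as scores (vertical) for 11 genes past the threshold, in wild type (grey; open squares are flasks on GCAT chips) and delHAP4 (red), with mean and SD beside them. The groups are apart in all panels except ICY1, where wild type flask 0 at 1.07 lies just under delHAP4 flask 2 at 1.12, and in SDT1 wild type flask 0 at 0.08 is next to delHAP4 flask 2 at 0.07.

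ECL1, named for the longer chronological lifespan that its overexpression gives, was higher in delHAP4 and lower than t0 in wild type. Its delHAP4 flasks held 1.26, 1.10, 1.95 and 1.42. Wild type gave a value in flasks 0, 1 and 4 only, of −0.55, −1.95 and −1.56. The signs were thus opposite in all flasks measured, and the difference was 2.61 ± 0.58 (adjusted p = 0.0471). At 60 min only wild type flasks 0 and 1, both on GCAT chips, gave a value, at −0.24 and −2.61. The fitted difference at 15 min was 3.39 ± 0.70, where wild type flasks 1, 3 and 4 were at −1.43, 0.53 and −0.89.

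FRE3 encodes a reductase that frees iron from siderophores. It was at 1.20, 1.93, 1.02 and 0.68 in delHAP4 and at 0.14, −1.53, −0.32, −1.57 and −1.16 in wild type, with no overlap (2.04 ± 0.45, adjusted p = 0.0345). Of 26 genes of the iron response tested, FRE3 was the only one called, 7 differences were above 0, and the median was −0.29. HMX1, the heme oxygenase that releases iron from heme, was lower without overlap, at −1.66 to −0.03 in delHAP4 and 0.85 to 1.98 in wild type, but did not pass (−1.86 ± 0.46, adjusted p = 0.0883).

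MET2 encodes homoserine O-acetyltransferase, an early step of methionine synthesis. It was at 1.29, 1.74, 1.15 and 1.25 in delHAP4 and at −0.82, −0.76, 0.15, −0.49 and −1.76 in wild type, and the flasks did not overlap (2.01 ± 0.41, adjusted p = 0.0148). Of 23 genes of sulfur assimilation tested, MET2 was the only one called, and 18 differences were above 0, with a median of 0.34. An unadjusted p below 0.05 with delHAP4 higher was found in 6 of the 23, where 3.93% of all genes had one. Among them were MUP1, the high-affinity methionine permease (1.94 ± 0.48, adjusted p = 0.0877), STR3, a cystathionine beta-lyase (1.52 ± 0.42, adjusted p = 0.123), and MET14, adenylylsulfate kinase (1.44 ± 0.43, adjusted p = 0.188). The flask medians of the list, 0.05 to 0.82 in delHAP4 and −0.49 to 0.19 in wild type, overlapped. High medians were not particular to delHAP4: their mean was 0.47 in delHAP4, 0.43 in delCIN5, 0.39 in delSWI4 and 0.37 in delGLN3. It was 0.19 in delHMO1 as deposited, −0.15 in delZAP1 and −0.12 in wild type. From the other deletion strains MUP1 differed by 0.16 ± 0.73, STR3 by 0.98 ± 0.38 and MET14 by 0.56 ± 0.51. The parent BY4741 lacks MET17 and BY4739 has it, and MET2 in flask 0, the only BY4739 flask, lay within the range of the other wild type flasks.

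SLX4, a scaffold subunit of a DNA repair endonuclease, had the smallest of the called positive differences. Its delHAP4 flasks were at 0.41, 1.12, 0.43 and 0.80 and its wild type flasks at −1.02, −0.53, −1.34, −0.98 and −0.41. All delHAP4 flasks were above t0 and all wild type flasks below (1.6 ± 0.32, adjusted p = 0.0148).

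Of 60 genes of amino acid synthesis listed and tested, 0 were called, 21 differences were above 0, and the median was −0.17. In limma, 7 had an unadjusted p below 0.05 with delHAP4 higher and 12 with delHAP4 lower. Over all genes these shares were 3.93% and 4.34%. ARG1, argininosuccinate synthetase, was at 0.43 to 1.30 in delHAP4 and at 0.97 to 4.30 in wild type (−2.07 ± 0.60, adjusted p = 0.156). ASN1, asparagine synthetase, differed by −1.43 ± 0.41 (adjusted p = 0.148) without overlap, and GDH1, the glutamate dehydrogenase that assimilates ammonium, by 1.82 ± 0.56 (adjusted p = 0.202).

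SDT1, a pyrimidine nucleotidase, was at −0.10, 0.07, −0.39 and −0.44 in delHAP4. In wild type it was at 0.08 in flask 0 and at 2.16, 2.27, 2.38 and 1.58 in flasks 1 to 4. As a mean over both times the BY4739 flask thus stood with delHAP4, but its 2 arrays differed. At 30 min it was at −1.32, within the delHAP4 range of −1.45 to −0.45. At 60 min it was at 1.47, above the delHAP4 range of −0.08 to 0.86. The difference of −2.0 ± 0.41 (adjusted p = 0.0148 in limma) was −2.46 without flask 0. ICY1 showed the same layout of flask means, with 1.07 in wild type flask 0, 2.55 to 4.89 in flasks 1 to 4, and −0.41 to 1.12 in delHAP4 (−2.38 ± 0.49, adjusted p = 0.0149 in limma). Its flask 0 was at 0.39 at 30 min, against 0.03 to 1.31 in delHAP4. At 60 min that flask was at 1.75, above the −0.85 to 1.01 of delHAP4.

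**Figure D3:**
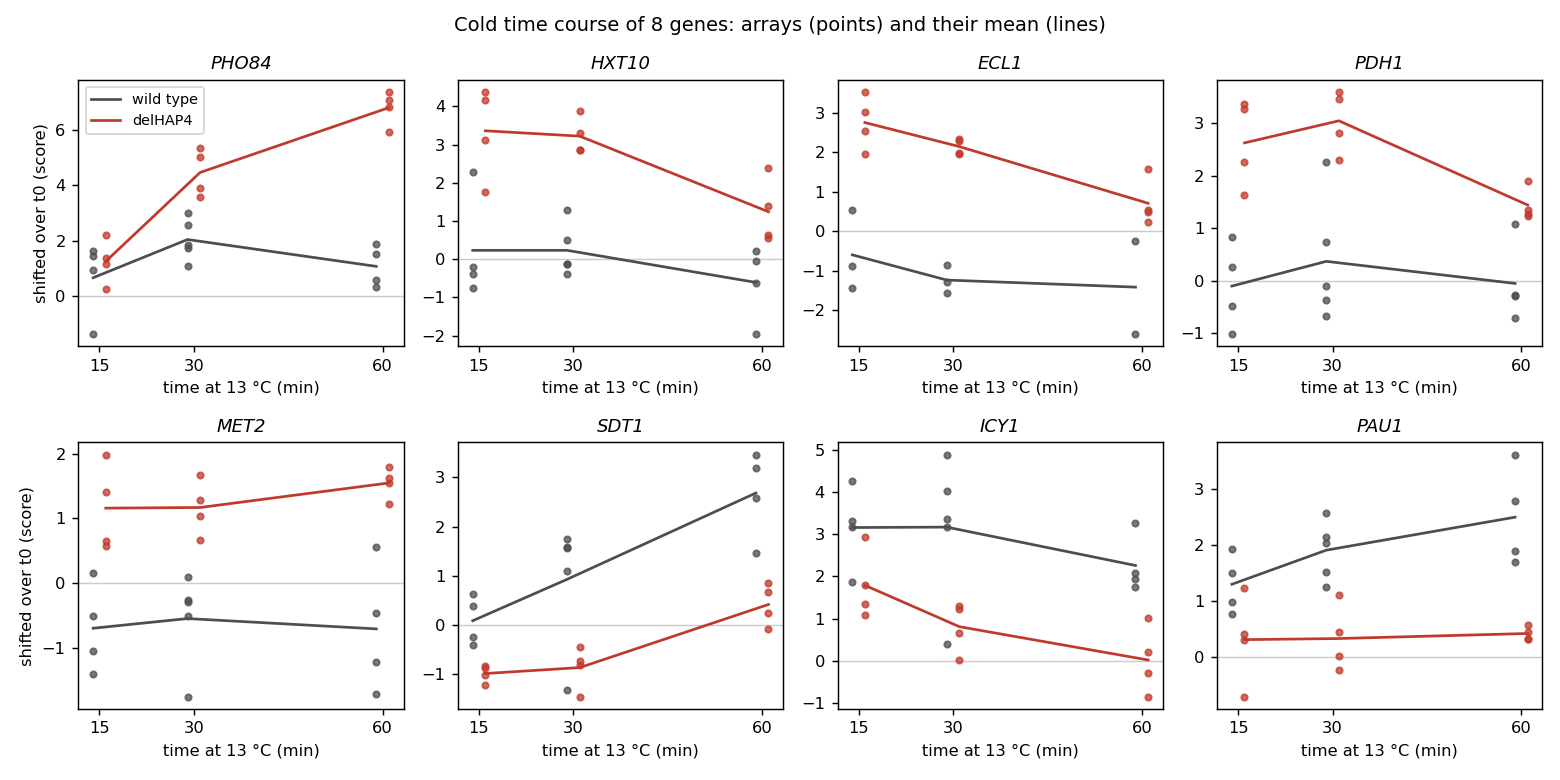
Scores over t0 (vertical) against minutes at 13 °C for 8 genes, with arrays as points, moved by 1 min to either side so that the strains can be told apart, and lines through the means of wild type (grey) and delHAP4 (red). PHO84 separates after 15 min, whereas the means of HXT10, ECL1 and PDH1 are apart at 15 min already (1 wild type array of HXT10 lies among those of delHAP4), and SDT1, ICY1 and PAU1 have higher means in wild type than in delHAP4.

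The other genes called lower encode cell wall proteins. GAS2, a glucanosyltransferase of the spore wall, was at −0.10, 0.62, 0.81 and 0.49 in delHAP4 and at 2.97, 2.82 and 2.10 in wild type flasks 0, 1 and 4, the wild type flasks with a value (−2.28 ± 0.50, adjusted p = 0.0378). At 60 min only wild type flasks 0 and 1, both on GCAT chips, gave a value, at 3.12 and 2.97. Of 26 cell wall genes tested, GAS2 was the only one called, and 8 differences were above 0, with a median of −0.49. FKS1, a catalytic subunit of glucan synthase, had −1.23 ± 0.55 (adjusted p = 0.523).

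The seripauperins, a family of near-identical cell wall mannoproteins (the PAU genes), had the lowest median of the lists examined. PAU1 was at 0.29, 0.72, 0.10 and 0.39 in delHAP4 and at 3.10, 2.41, 2.02, 1.61 and 1.25 in wild type, with no overlap (−1.82 ± 0.36, adjusted p = 0.0148). PAU6 was at 0.52, 0.14, −0.21 and −0.06 in delHAP4 and between 1.68 and 2.14 in every wild type flask (−1.78 ± 0.40, adjusted p = 0.0378). Of 23 members, these 2 were called lower and none higher, 22 differences were below 0, and the median was −1.47, from a median response of 1.38 in wild type to −0.09 in delHAP4. An unadjusted p below 0.05 with delHAP4 lower was found in 15 of the 23, where 4.34% of all genes had one. Since probes for near-identical genes can share transcripts, the members are not independent measurements.

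The size of the PAU difference moved with the chip. The median of the family was 2.61 and 1.71 in wild type flasks 0 and 1, on GCAT chips, and 0.39 to 0.65 in the 3 wild type flasks on Ontario chips, against −0.26 to 0.34 in delHAP4. On Ontario chips alone the median difference was −0.71, with 0 of the members called. The part of the chip in the PAU difference was not tested further. Mannoproteins known for induction in cold, another list of wall genes, had a median of −0.19 over 9 members with none called; TIR1 was at −0.39 to 1.54 in delHAP4 and 0.74 to 3.62 in wild type.

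The described targets of the HAP complex, genes of respiration, the citric acid cycle and heme whose activation through a CCAAT box is known, showed no difference that passed. Of 22 tested, 0 were called, 10 differences were above 0, and the median was −0.08 (limma; 1 had an unadjusted p below 0.05, and 21 of the 22 lay within 1 of 0). In 16 of the 22 both strains had a mean below t0. The lowest end of any member's 95% interval was −1.76, in ACO1 and ATP2, and the highest was 2.29, in HEM3. Other intervals were narrower, such as −0.81 to 0.54 for QCR8, and the SE ran from 0.34 to 0.62. For each target, a difference inside its own interval lies within the error of these arrays. The flask medians of the list overlapped, with −0.49 to −0.37 in delHAP4 and −0.58 to −0.11 in wild type.

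SOD2, the mitochondrial superoxide dismutase, had the smallest p of these targets and was the one without overlap. It was at −1.07, −1.20, −1.64 and −1.44 in delHAP4 and at −0.67, −0.38, −0.53, −0.90 and 0.18 in wild type (−0.78 ± 0.38, adjusted p = 0.592). HEM3, of heme synthesis, had a difference of 1.03 ± 0.62, ACO1, aconitase, of −0.69 ± 0.53 and CIT1, mitochondrial citrate synthase, of 0.80 ± 0.62. CYC1, the cytochrome c gene through which the complex was first studied, was at −2.28 ± 0.28 in delHAP4 (n = 4) and −2.38 ± 0.95 in wild type (SD, n = 5), a difference of 0.12 ± 0.60.

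In the complexes of the respiratory chain, none of the 11 genes of the cytochrome bc1 complex, 9 of cytochrome c oxidase, 13 of the ATP synthase or 6 of succinate dehydrogenase was called. Their median differences were −0.13, 0.10, −0.20 and −0.07, in that order, and 0 of these genes had an unadjusted p below 0.05 in limma. In the citric acid cycle 0 of 17 were called and the median was 0.05. The 2 with an unadjusted p below 0.05 encode the subunits of mitochondrial isocitrate dehydrogenase: IDH1 was at −0.30, −1.70, −0.64 and −1.17 in delHAP4 and at −1.09, −2.68, −4.43, −3.36 and −3.74 in wild type. The difference was 2.03 ± 0.59 for IDH1 (adjusted p = 0.163) and 1.80 ± 0.65 for IDH2 (adjusted p = 0.352). In both genes the wild type flask nearest to delHAP4 was flask 0, and it alone overlapped delHAP4. Genes of the mitochondrial ribosome, 71 in all, had a median of −0.11 and none called.

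None of the genes of the complex itself was called. HAP2, HAP3 and HAP5 differed by −0.26 ± 0.35, 0.03 ± 0.49 and −0.19 ± 0.43, and HAP1, a heme-dependent activator of respiratory genes outside the complex, by −0.45 ± 0.43. The HAP4 feature read −0.09, −1.31, −0.02 and −0.45 in delHAP4 and −2.18 to 0.24 in wild type (0.11 ± 0.60). Next to HAP4 on chromosome XI lie KTI12 and SLD2, which differed by 0.73 ± 0.42 and −0.48 ± 0.38. YKL107W, the second gene on the side of SLD2, differed by 1.72 ± 0.44 (adjusted p = 0.103), with flasks of 0.10 to 1.90 in delHAP4 and −1.53 to 0.60 in wild type that overlapped. Among the other factors deleted in the series, the differences were 0.74 ± 0.55 for CIN5, −0.15 ± 0.48 for GLN3, −0.53 ± 0.76 for HMO1, 0.35 ± 0.40 for SWI4 and −1.93 ± 0.53 for ZAP1 (adjusted p = 0.123), and none was called.

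**Figure D4:**
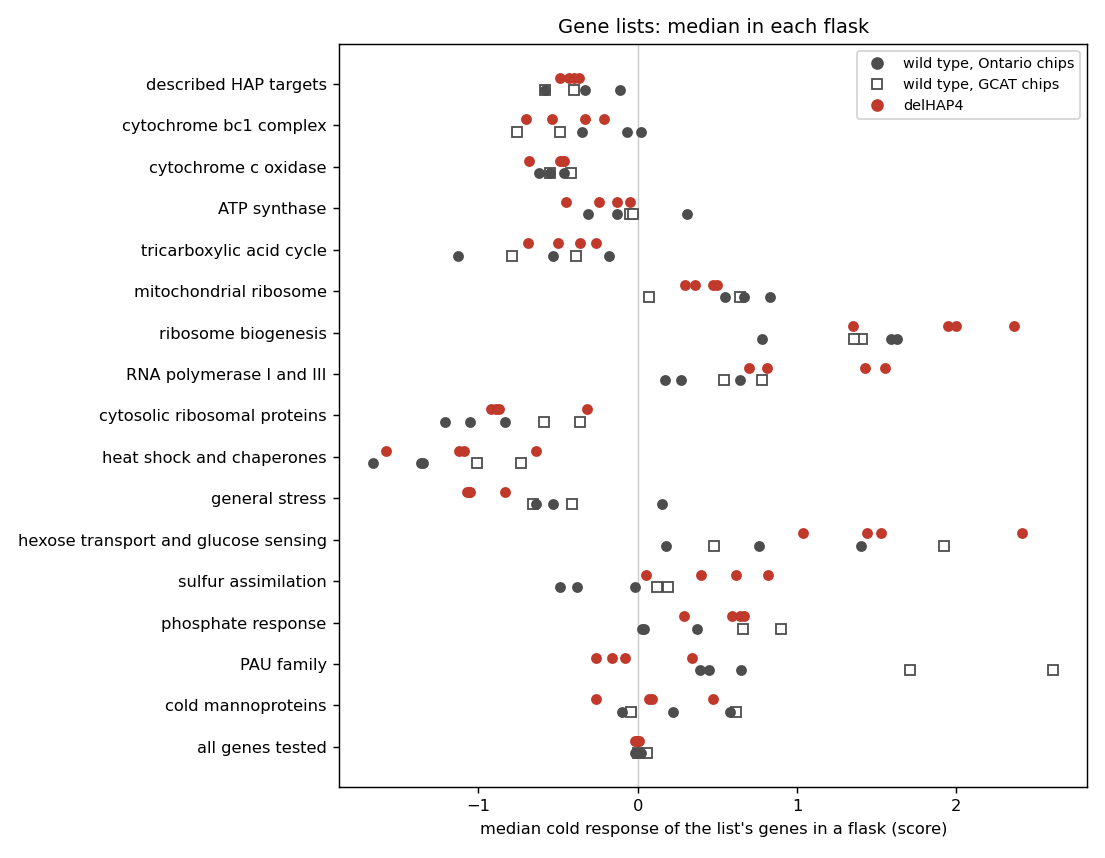
Each point is the median cold response, as a score (horizontal), of the genes of a list in a flask of wild type (grey; open squares are GCAT chips) or delHAP4 (red). The flask medians of the HAP targets and respiratory lists overlap between strains, whereas those of general stress genes and the PAU family do not, the latter with the GCAT flasks at 1.71 and 2.61.

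Genes of ribosome assembly had a median above t0 in both strains. Of 112 ribosome biogenesis genes tested, 0 were called between strains and 86 differences were above 0. The median difference was 0.50, from a median response of 1.30 in wild type to 1.92 in delHAP4. An unadjusted p below 0.05 in limma was found in 12, all higher, where 3.93% of all genes had one with delHAP4 higher. Flask medians overlapped, with 1.35 to 2.36 in delHAP4 and 0.78 to 1.63 in wild type. Their mean was 1.92 in delHAP4, 1.87 in delZAP1, 1.59 in delGLN3, 1.42 in delSWI4 and 1.4 in delCIN5. It was 1.09 in delHMO1 as deposited and 1.35 in wild type. NOC4, which takes part in export of the small subunit, was at 1.00 to 1.74 in delHAP4 and −0.97 to 0.61 in wild type (1.45 ± 0.45, adjusted p = 0.2). For RNA polymerases I and III, the median over 23 subunits was 0.73 with 0 called. The mean flask median of these was 1.12 in delHAP4, 0.96 in delGLN3, 0.92 in delZAP1, 0.77 in delSWI4 and 0.5 in delCIN5. In delHMO1 as deposited it was 0.56, and in wild type 0.48. RPC82, a subunit of polymerase III, differed by 1.66 ± 0.50 (adjusted p = 0.188) while RPO31, its largest subunit, differed by −1.18 ± 0.46 (adjusted p = 0.421). Cytosolic ribosomal proteins had a median of 0.08 over 133 members, with 0 called.

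General stress genes respond to Msn2 and Msn4. Of 35 tested, 0 were called, 28 differences were below 0, and the median was −0.65. An unadjusted p below 0.05 in limma was found in 7 of the 35, all lower, where 4.34% of all genes had one with delHAP4 lower. The flask medians, −1.07 to −0.83 in delHAP4 and −0.66 to 0.15 in wild type, did not overlap. Low medians were not particular to delHAP4, with −1.2 to −1.1 in delSWI4 and −0.96 to −0.75 in delZAP1. They were −1.18 to 0.59 in delGLN3, −0.67 to 0.0 in delHMO1 as deposited and −0.28 to −0.04 in delCIN5. PGM2, the main phosphoglucomutase, was at −2.37 to −1.23 in delHAP4 and 0.00 to 0.91 in wild type (−2.12 ± 0.80, adjusted p = 0.39). ALD3, a cytosolic aldehyde dehydrogenase, differed by −1.28 ± 0.47 (adjusted p = 0.367). Genes of protein folding in the endoplasmic reticulum also had flask medians without overlap, at −0.38 to −0.30 in delHAP4 and −0.22 to 0.20 in wild type, with 0 of 16 called and a median difference of −0.06 (limma; 2 had an unadjusted p below 0.05, both lower). Heat shock proteins and chaperones had a median of 0.36 over 28 members with 0 called.

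Markers of the mating types were examined because wild type flask 0 is BY4739. None of the 8 a-specific and 4 alpha-specific genes was called, with medians of −0.42 and 0.04. The flask medians of the a-specific list, −0.36 to −0.01 in delHAP4 and 0.06 to 0.28 in wild type, did not overlap. As ratios over t0 these values do not show the mating type. The 5 marker genes deleted in one or other parent had differences of −0.54 to 0.28.

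To set delHAP4 against strains that were grown with G418 as well, its cold response was compared with the mean of delCIN5, delGLN3, delHMO1, delSWI4 and delZAP1, which hold 40 arrays at t30 and t60 from 21 flasks. Of 6007 genes tested, 3 (0.0499%) differed, all higher in delHAP4: PDH1, LEE1 and ECL1. Both contrasts use the delHAP4 arrays, so they are not independent of each other. All 3 calls were lost with a slide coating term estimated from delSWI4, where the differences were 2.99 ± 0.78 for PDH1, 1.49 ± 0.81 for ECL1 and 0.35 ± 0.59 for LEE1, and without delHAP4 flask 1, 3 or 4. Over all alternatives the difference ran from 1.49 to 2.99 for PDH1, from 1.49 to 2.34 for ECL1 and from 0.35 to 1.76 for LEE1. The direction of the ratio was treated as unsettled in delHMO1. As deposited, its flask medians of ribosome biogenesis genes, 0.54 to 1.62, had the same sign as those of wild type, 0.78 to 1.63. Without that strain PDH1 was the one that remained (2.17 ± 0.44, adjusted p = 0.0242). Strain means of the other deletion strains are given in the text without delHMO1 unless it is named, whereas the fitted differences from them include it.

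PDH1, a mitochondrial protein linked to propionate metabolism, was at 2.35, 1.83, 2.74 and 2.03 in delHAP4 flasks 1 to 4. The means of the other deletion strains lay between −0.56 ± 0.48 in delSWI4 (n = 4) and 0.57 ± 0.82 in delGLN3 (SD, n = 5). The difference from them was 2.11 ± 0.43 (adjusted p = 0.018). In delGLN3, flask 1 at 1.85 lay above the lowest delHAP4 flask. Against wild type, with flasks from −0.47 to 1.67, the flasks did not overlap, but the difference of 2.05 ± 0.65 did not pass (adjusted p = 0.217). Against delSWI4 flasks 2 to 4 alone, which share the uncoated slides and the G418, PDH1 was the 1 gene called (2.96 ± 0.60, adjusted p = 0.0182).

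LEE1, a zinc finger protein, was at 1.79, 1.31, 2.39 and 2.08 in delHAP4, and the other deletion strains had means of 0.02 ± 0.79 to 0.67 ± 0.30. The difference was 1.57 ± 0.33 (adjusted p = 0.0181). ECL1 at 1.43 ± 0.37 (n = 4) stood above strain means of −1.14 ± 1.82 in delCIN5 (n = 2) to 0.32 ± 0.50 in delZAP1 (n = 4), by 1.99 ± 0.44 (adjusted p = 0.0416).

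**Figure D5:**
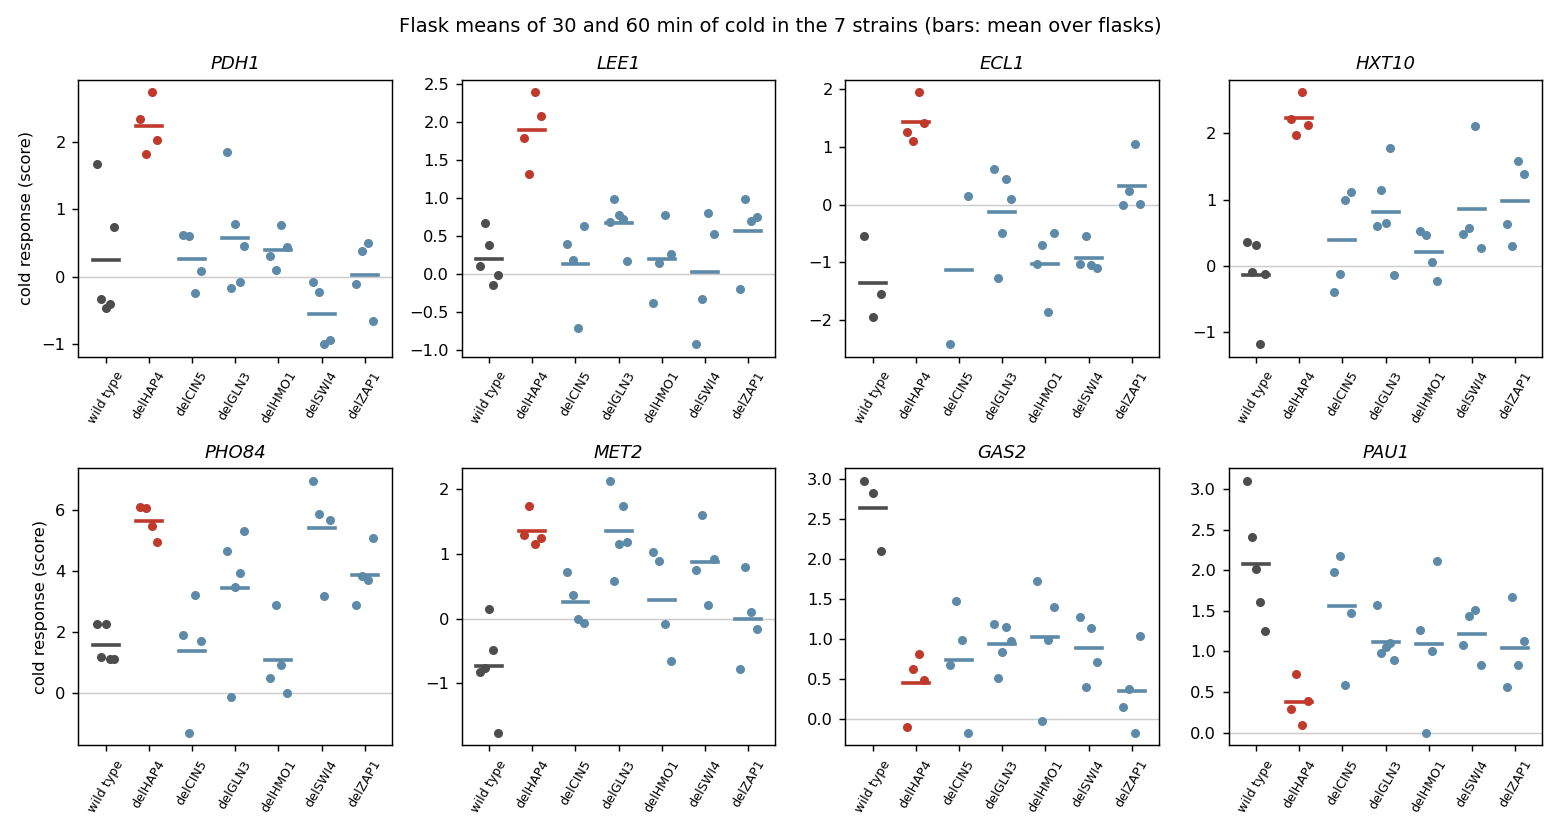
Flask means of t30 and t60 as scores (vertical) in wild type (grey), delHAP4 (red) and the other deletion strains (blue), with bars at the mean over flasks. The means of PDH1, LEE1 and ECL1 are highest in delHAP4 with delHMO1 drawn as deposited, whereas the PHO84 mean of 5.41 in delSWI4 is near the 5.64 of delHAP4, and the MET2 mean of delGLN3 equals that of delHAP4 at 1.36.

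Of the 6 genes called higher than in wild type, 5 had a delHAP4 mean above that of every other deletion strain, with delHMO1 as deposited, the exception being MET2. SLX4 was at 0.69 ± 0.34 in delHAP4 and at −0.67 to −0.34 in the other deletion strains without delHMO1 (fitted difference 1.08 ± 0.35, adjusted p = 0.948 in limma). In delHMO1, as deposited, SLX4 was at −0.28 ± 0.97 (SD, n = 4). Its flask 3 there, at 0.83, lay within the delHAP4 range of 0.41 to 1.12. PHO84 had a mean of 5.41 ± 1.6 in delSWI4 (n = 4), 3.87 ± 0.90 in delZAP1 (n = 4) and 3.44 ± 2.13 in delGLN3 (n = 5), against 5.64 ± 0.55 in delHAP4 and 1.57 ± 0.63 in wild type. Its difference from the other deletion strains was 2.65 ± 0.75 (adjusted p = 0.542). MET2 was at 1.36 ± 0.59 in delGLN3, as high as in delHAP4. HXT10 was at 0.40 to 0.97 in the other deletion strains, below the 2.23 of delHAP4, and differed from them by 1.56 ± 0.50 (adjusted p = 0.921).

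Among the genes lower than in wild type, GAS2 had means of 0.35 to 0.93 in the other deletion strains against 0.45 in delHAP4 (−0.31 ± 0.42). PAU1 was at 1.05 to 1.56 in the other deletion strains, 0.37 in delHAP4 and 2.08 in wild type, and delHAP4 differed from the other deletion strains by −0.83 ± 0.33 (adjusted p = 0.999). ICY1 was at −0.06 to 1.39 in the other deletion strains without delHMO1, against 0.42 in delHAP4 and 2.97 in wild type. In delHMO1, as deposited, ICY1 was at 3.01 ± 1.6 (SD, n = 4), near the wild type mean. The PAU family as a list had mean flask medians of 0.11 to 0.28 in the other deletion strains, −0.04 in delHAP4 and 1.16 in wild type.

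Whether the strain difference changed between 30 and 60 min of cold was tested gene by gene. Of 6077 genes, 0 (0.0%) passed in limma, 48 had an unadjusted p below 0.05, and the median SE was 0.72, larger than the 0.46 of the averaged contrast. At 30 min alone 0 genes differed between strains (348 with an unadjusted p below 0.05), and at 60 min alone 2 did, among them PHO84 (5.95 ± 1.21, adjusted p = 0.0484).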

How the data were processed

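For each array, the deposited table holds 1 score per open reading frame. These are log ratios that the authors made with limma, per the submitters' processing notes, which give no version or settings, and they had a scaled median absolute deviation of 0.999 to 1 on each of the 17 arrays. The scores were used as deposited. Of 6178 frames, 5674 were named through the RefSeq gene table and 504 keep systematic names. Unmapped columns numbered 0. No coordinates are printed, as no genome build is known for the array, and cross-hybridization was not examined.

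Responses were fitted in limma 3.58.1 (R 4.3.3) with 1 mean per strain and time over 41 arrays of delHAP4 and wild type at all times, flask as a random block (correlation 0.25), moderated variances and Benjamini-Hochberg adjustment over all genes with a value in at least 2 flasks per strain. The contrast weighs t30 and t60 equally, so it can differ from the difference of flask means. The contrast with the other deletion strains used the 137 arrays. Of the genes called lower, 1 is counted but not reported here, and it was left out of the gene lists and figures. Overlap was judged with at least 3 flasks per strain. The fit was tested on simulated data. Summaries and figures used pandas 2.3.3 with numpy 2.4.6, then matplotlib 3.10.9, all in Python 3.11.15, and rank correlations used scipy 1.17.1.

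Per the labels, flasks are separate cultures, and pairs of flasks of a strain shared a day that the labels do not name. Precision is limited by how many arrays there are. Genes and lists were chosen with earlier results of these data known. The rule for named genes took those past the threshold without overlap, at most 4 per list by smallest adjusted p, HAP1 to HAP5, the other deleted factors and the neighbours of HAP4. ICY1, CYC1, PHO5, PHO11 and PHO89 fall outside it and were picked after their values were seen. Alternatives were other normalizations, dye and coating terms, subsets of chips, dyes and times, single flasks left out, a flask number block and a stricter threshold.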

Additional observations from a re-analysis of the deposited data

Results flagged for a closer look

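A difference in cold response that a test found between 2 strains was recorded for several genes. Against wild type they were, as fitted differences, PHO84 at 4.19, ECL1 at 2.61, HXT10 at 2.43, FRE3 at 2.04, MET2 at 2.01, SLX4 at 1.6, PAU6 at −1.78, PAU1 at −1.82, SDT1 at −2.0, GAS2 at −2.28 and ICY1 at −2.38. Against the other deletion strains they were PDH1 at 2.11, ECL1 at 1.99 and LEE1 at 1.57.

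A single flask stood far from the others of its strain in 1 of 54 groups of flasks examined, where chance gives about 1 in 20: ZAP1 in delHAP4 flask 2 was at 0.95, and the other delHAP4 flasks were at −0.75 to −0.66.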

How the results depend on the processing

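For delHAP4 minus wild type, 12 genes were called; leaving out 1 flask gave 0 to 31, with 1, 0 and 1 without delHAP4 flasks 1, 3 and 4, and 0, 31 and 4 without wild type flasks 1, 2 and 4 (367 and 405 at an unadjusted p below 0.05 for both counts of 0). The count was 44 with no flask correlation, 22 after quantile normalization, 7 of 3620 genes measured on every array, 26 from t30 and t60 arrays only, 3 in 1 fit of all strains, 0 with a slide coating term (336 at an unadjusted p below 0.05 in limma), 0 at t30 alone, 2 at t60 alone, 3 on Cy5 flasks, 124 on Cy3 flasks, 3 on flask means and 0 at an adjusted p below 0.01. On Ontario chips alone it was 12, of which 4 were the same genes (HXT10, SLX4, SDT1 and ICY1). Against the other deletion strains 3 genes were called; leaving out 1 flask gave 0 to 4, with 0 without delHAP4 flask 1, 3 or 4. The count was 8 with no flask correlation, 0 of 1316 genes measured on every array, 0 with a slide coating term, 1 at t30 alone, 0 at t60 alone, 1 without delHMO1, 1 with delSWI4 flasks 2 to 4 as the reference and 0 at an adjusted p below 0.01. For the change from 30 to 60 min the count was 0, and 1 from t30 and t60 arrays only. The cause of these changes was not tested. With flask number as a replicate block the counts were 61, 10 and 0 for the 3 contrasts, in that order; same-numbered flasks deviated together at r = −0.02 to 0.12, so that they share only a number. For single genes, 584 values stayed on their side of the threshold or within the spread between flasks, 166 calls were lost, 9 were gained, 21 values of uncalled genes moved further, and 0 calls changed sign. Depth is not given by log ratios, and with 4 and 5 flasks the median SE was 0.46.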
